A study of Rattus norvegicus with 8 samples.

Results

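Hepatic genes induced by fasting and by peroxisome proliferator-activated receptor alpha (PPAR alpha) were followed here in livers of testosterone-treated and untreated Zucker diabetic fatty (ZDF) rats. The genes were the 9 listed as Fgf21, Angptl4, Pdk4, Vnn1, Plin2, Cyp4a1, Cyp4a2, Cyp4a3 and Cyp4a8. They were chosen by name: an array probe counted when the accession it was designed to was annotated with one of these symbols. A probe was found for 8 of the 9, with 1 probe each, among 13458 genes named on the array. No probe matched Plin2, the coat protein of lipid droplets, so it is not analysed here. All 8 probes passed the filter on dim probes, which asked for signal well above background in either dye on at least 4 of 8 arrays. They in fact lay well above background in both dyes on all 8 arrays, and none was saturated.

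PPAR alpha is a nuclear receptor that senses fatty acids. In liver it pairs with the retinoid X receptor, binds a direct repeat of a short half-site in the DNA, and turns on the genes of fatty acid transport, oxidation and ketone body formation when the animal fasts. Its targets in rodent liver include secreted signals (Fgf21 and Angptl4), an enzyme that spares glucose (Pdk4), a pantetheinase (Vnn1) and the CYP4A family, which hydroxylates fatty acids at their methyl end and is the classical marker of PPAR alpha activation in rats.

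RNA came from livers of male rats labelled as 12 weeks old. Obese rats carried 2 copies of the fa allele of the leptin receptor gene (fa/fa), so that leptin signalling is defective in the whole animal, and lean rats carried 1 (fa/+). Testosterone undecanoate (TU), a long-acting testosterone ester, was given by subcutaneous injection of 20 mg/kg, at intervals of 3 days for 2 weeks and weekly for another 2, in all 4 weeks, and control rats received vehicle. Each of 8 two-colour arrays (4 obese, 4 lean) paired RNA of TU rats in Cy5 with RNA of vehicle rats in Cy3. The obese arrays filled 1 slide and the lean arrays another, scanned separately, so a slide effect and a genotype effect cannot be told apart. No array had its dyes exchanged, so any dye bias of a probe is part of its TU response. Such a bias cancels in a difference between genotypes only where it is equal on both slides, which was not tested. Each array is labelled as a separate biological replicate, but the labels do not say if its RNA was that of 1 animal or of a pool. The replicate number is also the position on the slide, so obese replicate 1 and lean replicate 1 both sat in position 1.

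The promoters are shown for 3 of the genes: Fgf21, because it differed most between genotypes, and Cyp4a2 and Cyp4a3, because they alone of the windows held the nuclear receptor half-site AGGTCA and are nearly alike. The 250 bases before the annotated gene start are given 5′ to 3′ from RefSeq (rat build GRCr8). Capitals mark the letters TGATGCAAT or their reverse complement, an amino acid response element, in Fgf21 and that half-site in the CYP4A genes.
Fgf21, hormone of the fasted liver, chr1:105221377-105221626, minus strand: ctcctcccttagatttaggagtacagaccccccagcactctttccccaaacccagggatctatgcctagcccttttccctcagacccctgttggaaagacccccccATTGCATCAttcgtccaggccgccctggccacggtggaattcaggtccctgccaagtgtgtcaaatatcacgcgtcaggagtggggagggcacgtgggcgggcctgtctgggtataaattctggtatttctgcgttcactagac
Cyp4a2, fatty acid hydroxylase, chr5:134170909-134171158, minus strand: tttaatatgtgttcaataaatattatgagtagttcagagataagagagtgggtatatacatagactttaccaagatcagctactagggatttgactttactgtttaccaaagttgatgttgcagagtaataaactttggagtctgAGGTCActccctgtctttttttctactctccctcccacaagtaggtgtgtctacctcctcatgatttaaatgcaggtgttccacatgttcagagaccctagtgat
Cyp4a3, fatty acid hydroxylase, chr5:134352237-134352486, minus strand: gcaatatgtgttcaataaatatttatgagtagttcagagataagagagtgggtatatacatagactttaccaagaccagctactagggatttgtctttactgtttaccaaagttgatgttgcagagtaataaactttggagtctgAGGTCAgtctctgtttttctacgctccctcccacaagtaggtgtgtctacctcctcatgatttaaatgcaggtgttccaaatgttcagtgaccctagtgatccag
The table held windows of 7 of the 9 genes, from 250 bases before to 50 after the start, and none of Vnn1 or Cyp4a1. Aligned over these windows, Cyp4a2 and Cyp4a3 shared 284 bases, with 11 mismatches and 10 gap positions, or 94.7% of the window. Cyp4a8 shared 58.0% with Cyp4a2. The half-site AGGTCA, sought on both strands, began at position -105 in both Cyp4a2 and Cyp4a3 and was in none of the other windows, while 16.2% of all 33469 promoters held it. The direct repeat of PPAR alpha, 2 copies of AGGTCA in a row with any 1 base between them, was in none of the 7 genes with up to 2 mismatches (3.77% of all promoters). The letters TGATGCAAT were in Fgf21 only among the 7 genes, from -144 on the opposite strand, and in 0.188% of all promoters; that element was searched after the sequences had been read. The androgen and glucocorticoid element, AGAACA and TGTTCT with any 3 bases between them, was in none with up to 2 mismatches (1.87% of all promoters). A match describes letters in a short window and shows no binding.

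Levels are log2 normalised intensities, comparable between samples of a gene within a dye but not between genes. Signals of 8 arrays had median Cy5 values of 56 to 68 over a background of 41 to 45, and median Cy3 values of 39.5 to 56 over 19 to 25. The log ratios of obese replicate 2 had an SD of 0.46, against 0.11 to 0.25 on the other arrays. All 10 hepatocyte markers sought were measured. An offset of 50 added to the signals understates the change of dim probes. A call is an adjusted p under 0.05 in limma (Benjamini-Hochberg over all probes tested).

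Fgf21, the hormone by which the fasted liver signals to fat tissue and brain, was 4.60-fold higher in obese than in lean livers under TU and 7.59-fold higher under vehicle. Its level under TU was 10.87, 10.81, 10.19 and 9.54 on obese arrays 1 to 4 and 8.11, 7.81, 8.84 and 7.85 on lean arrays 1 to 4. Vehicle levels were 10.74, 11.50, 11.71 and 11.17 on the obese arrays and 7.26, 8.18, 9.62 and 8.36 on the lean arrays. Every obese value lay above every lean value in both dyes. The log2 difference was 2.20 ± 0.34 (SE, n = 4 each, limma adjusted p = 0.0045) under TU and 2.93 ± 0.47 (limma adjusted p = 0.0083) under vehicle. Both calls held in 17 of 17 other settings, in which the difference ranged between 2.01 and 2.79 under TU and between 2.56 and 3.71 under vehicle. By mean level the order was obese vehicle, obese TU, lean vehicle, lean TU, and neither pair of TU and vehicle within a genotype was separated by a call. Within a genotype that order sets Cy3 against Cy5 levels, so a dye bias of the probe is part of it.

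Vnn1, which splits pantetheine to release cysteamine and the vitamin B5 part of coenzyme A, was 2.60-fold higher in obese livers under TU and 2.76-fold higher under vehicle. Under TU its level was 10.05, 10.95, 10.81 and 10.71 on the obese arrays and 9.06, 9.69, 9.16 and 9.09 on the lean arrays. Vehicle levels were 9.48, 9.39, 11.00 and 10.38 on the obese arrays and 8.53, 8.31, 8.82 and 8.73 on the lean arrays. The groups did not overlap in either dye. The log2 difference was 1.38 ± 0.22 (SE, n = 4 each, limma adjusted p = 0.0049) under TU, called in 17 of 17 other settings. Under vehicle it was 1.47 ± 0.36 (limma adjusted p = 0.0335) and called in 10 of 17. That call was lost with median centring (1.15, adjusted p = 0.0934), without any 1 of the 4 lean arrays (adjusted p between 0.0764 and 0.0942), without obese replicate 4 (0.0762), and without both arrays of position 1 (0.0621).

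Of the 8 genes, these 2 passed in each dye, both higher in obese livers. Over all probes 20.3% passed under TU (11.6% higher) and 15% under vehicle (7.82% higher), so a share of 2 in 8 is near the background. Groups did not overlap for 2 of the 8 genes in either dye, against 27% of all probes under TU and 26.3% under vehicle. The median log2 difference of the 8 genes was 0.28 under TU and 0.57 under vehicle, beside 0.02 under TU and 0.01 under vehicle over all probes. Above 0 lay 6 of 8 under TU and all 8 under vehicle.

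**Figure D1:**
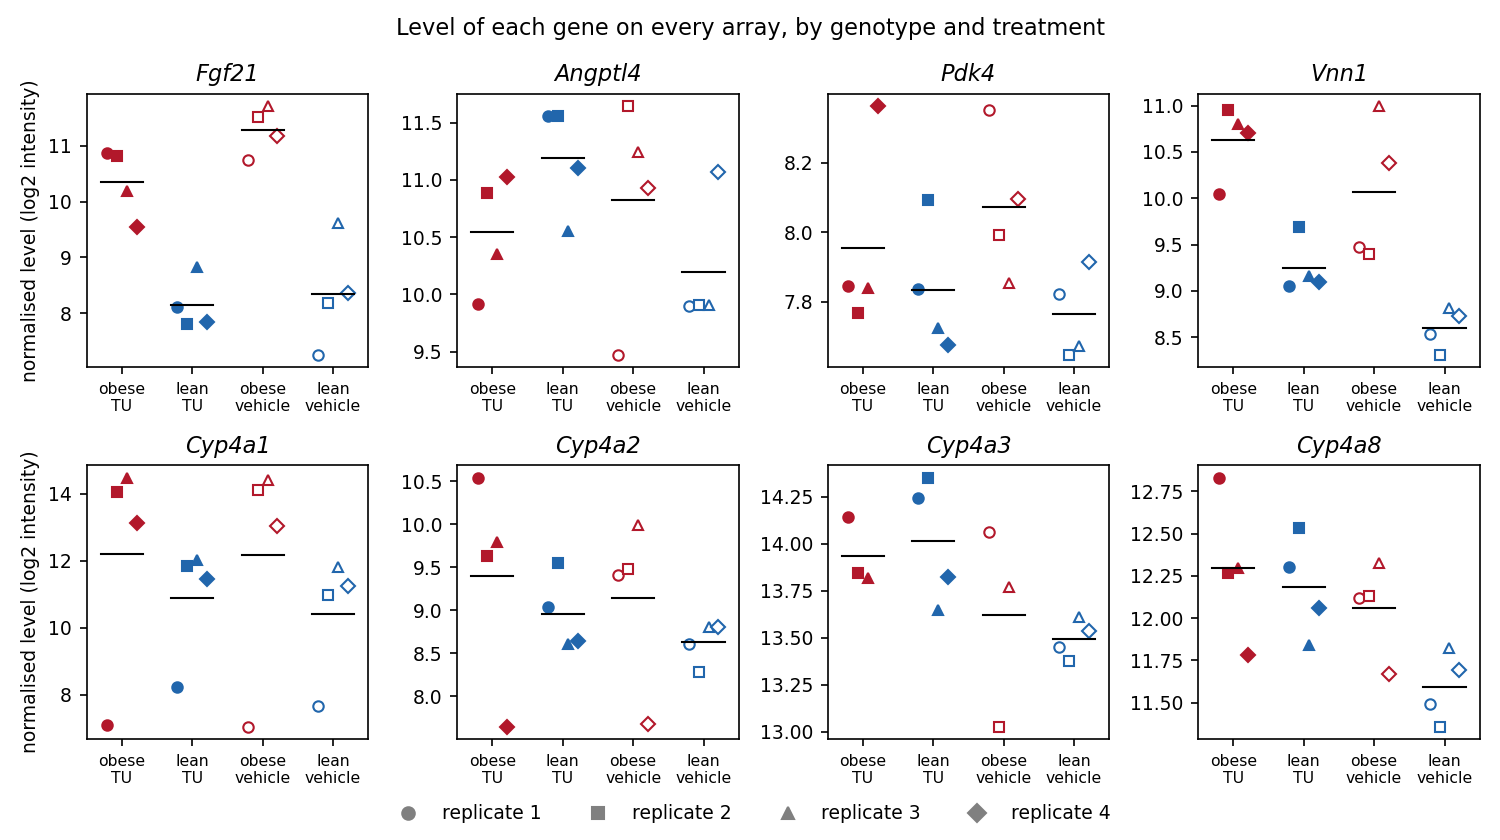
Level of each of the 8 genes (vertical axis, log2 normalised intensity, own scale per panel) on every array in obese and lean livers under TU (filled) and vehicle (open). Symbols give the replicate number and bars the mean. Fgf21 and Vnn1 are the genes whose obese points all lie above the lean points in both dyes, and Cyp4a1 has its replicate 1 points far below the rest in all 4 groups.

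Cyp4a1, a fatty acid omega-hydroxylase strongly induced by fibrate drugs in rats, gave levels that split by position on the slide. Under TU its level was 7.10 on obese replicate 1 against 14.05, 14.49 and 13.13 on obese replicates 2 to 4, and 8.22 on lean replicate 1 against 11.85, 12.03 and 11.45 on lean replicates 2 to 4. In vehicle livers it stood at 7.04 against 14.13, 14.43 and 13.05 on the obese arrays, and 7.66 against 10.96, 11.82 and 11.26 on the lean arrays. The raw spot read 75 in Cy5 and 51 in Cy3 on obese replicate 1, and 161 in Cy5 and 126 in Cy3 on lean replicate 1. On the other arrays both dyes read at least 2246 and at most 30924. A gap of this size (2.74 log2 units between the highest level in position 1 and the lowest elsewhere) was found for 16 of 26582 probes in position 1, all below the rest, and for 0 probes in positions 2, 3 and 4. The 9 probes with a gap over 3 log2 units include those of Rps23, Kynu, Atp5pf, Ormdl2, Eci2, Rtcb and Ugp2, and 2 of them have no gene name; they were named after their values were seen. What sets position 1 apart for these probes was not tested.

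With all 8 arrays, Cyp4a1 was not called between genotypes: the log2 difference was 1.31 ± 1.68 (SE, limma adjusted p = 0.633) under TU and 1.74 ± 1.74 (limma adjusted p = 0.543) under vehicle. Without the 2 arrays of position 1, an alternative added after the data had been seen, it was 4.33-fold higher in obese livers under TU (2.12 ± 0.35, n = 3 each, limma adjusted p = 0.0084). Under vehicle it was then 5.75-fold higher (2.52 ± 0.41, limma adjusted p = 0.0211). Every obese level of positions 2 to 4 lay above every lean level of these positions in both dyes. The share of all probes so separated on these arrays was not computed. With all 8 arrays it was 15.7% under TU and 14.2% under vehicle, and fewer arrays separate more easily. Without position 1 the count of called genes was 3 under TU (Fgf21, Vnn1 and Cyp4a1) and 2 under vehicle (Fgf21 and Cyp4a1). Of all 26904 probes then tested, 6806 passed under TU and 3085 under vehicle. Leaving out obese replicate 1 alone kept the low lean replicate 1, which by construction raised the difference. It was then 3.00 under TU with a call (limma adjusted p = 0.0429), when 8447 of 26908 probes passed. Under vehicle Cyp4a1 passed in 1 of 17 other settings, that without both arrays of position 1. Over the fits that each left out 1 array, the difference under TU ranged from 0.42 to 3.00.

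Cyp4a2 and Cyp4a3 are fatty acid hydroxylases whose coding genes lie close together with Cyp4a1 and Cyp4a8 on rat chromosome 5. Transcripts of near-identical neighbours, among them Cyp4a2-like copies, could reach these probes, so which copy each one reports is uncertain; probe and transcript sequences were not compared here. The level of Cyp4a2 under TU was 10.54, 9.62, 9.79 and 7.65 on obese arrays 1 to 4 and 9.04, 9.55, 8.61 and 8.64 on the lean arrays. Vehicle-treated livers gave 9.41, 9.48, 9.98 and 7.67 on the obese arrays and 8.61, 8.29, 8.80 and 8.81 on the lean arrays. Obese replicate 4 was the lowest array in both dyes, with a raw signal of 126 in Cy5 and 99 in Cy3, and the other obese arrays lay above the lean range in both dyes. The log2 difference was 0.44 ± 0.57 (SE, limma adjusted p = 0.632) under TU and 0.51 ± 0.46 (limma adjusted p = 0.496) under vehicle. Leaving out obese replicate 4, this lowest array, by construction raised the difference. It was then 1.00 under vehicle with a call (limma adjusted p = 0.0244), when 2885 of 26908 probes passed. Under TU Cyp4a2 passed in 0 of 17 other settings.

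Cyp4a3 overlapped between genotypes in both dyes. Its spot on obese replicate 4 was marked non-uniform and left out, so 3 obese arrays enter its values. The level under TU was 14.14, 13.85 and 13.82 on obese arrays and 14.24, 14.35, 13.65 and 13.82 on lean arrays, with a log2 difference of -0.08 ± 0.19 (SE, limma adjusted p = 0.801). Under vehicle it was 14.06, 13.03 and 13.77 on obese arrays and 13.45, 13.37, 13.61 and 13.54 on lean arrays. That difference was 0.13 ± 0.23 (SE, limma adjusted p = 0.759). Without obese replicate 2, which had the lowest obese vehicle level, it was 0.42 with a call (limma adjusted p = 0.0477), when 5268 of 26907 probes passed.

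Cyp4a8, another member of the family, had levels under TU of 11.78 to 12.83 on the obese arrays and 11.84 to 12.53 on the lean arrays. Its vehicle levels were 12.12, 12.13, 12.33 and 11.67 on the obese arrays and 11.49, 11.36, 11.82 and 11.69 on the lean arrays. The ranges overlapped in both dyes, under vehicle through obese replicate 4. The log2 difference was 0.11 ± 0.23 (SE, limma adjusted p = 0.774) under TU and 0.47 ± 0.16 (limma adjusted p = 0.0856) under vehicle. Without obese replicate 4, which had the lowest obese vehicle level, the vehicle difference was called (0.60, limma adjusted p = 0.0321), when 2885 of 26908 probes passed. Cyp4a8 was also called with the scanner software's processed signals, at 0.86 under TU (limma adjusted p = 0.0120) and 1.17 under vehicle (0.0048). In that setting 8400 of 26911 probes passed under TU and 6567 under vehicle.

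**Figure D2:**
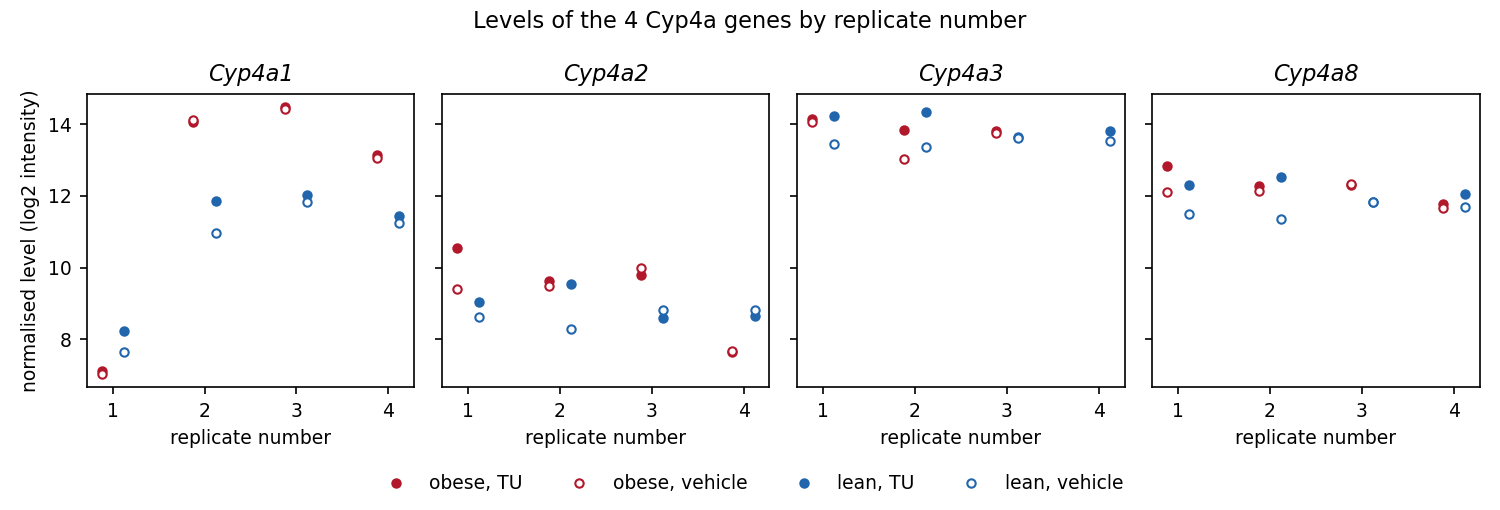
Level (log2 normalised intensity) of the 4 Cyp4a genes against the replicate number, which is the position on the slide; obese red, lean blue, TU filled, vehicle open. Cyp4a1 in position 1 lies between 7.04 and 8.22 in all 4 groups and above 10.9 elsewhere, and Cyp4a2 is low on obese replicate 4, where Cyp4a3 has no value.

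Angptl4, a secreted inhibitor of lipoprotein lipase that limits the uptake of fat from blood, was not called between genotypes. Its level under TU was 9.91, 10.89, 10.35 and 11.03 on the obese arrays and 11.56, 11.56, 10.55 and 11.11 on the lean arrays. On the vehicle side it was 9.47, 11.65, 11.24 and 10.93 on the obese arrays and 9.90, 9.91, 9.90 and 11.07 on the lean arrays. The mean lay lower in obese livers under TU and higher under vehicle, and the ranges overlapped in both. The log2 difference was -0.65 ± 0.31 (SE, limma adjusted p = 0.178) under TU and 0.63 ± 0.49 (limma adjusted p = 0.431) under vehicle.

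Pdk4, a kinase that switches off pyruvate dehydrogenase and so spares glucose, was not called between genotypes. Its values lay between 7.77 and 8.36 under TU and between 7.85 and 8.35 under vehicle on obese arrays. On lean arrays they lay between 7.67 and 8.09 under TU and between 7.65 and 7.91 under vehicle. The log2 difference was 0.12 ± 0.15 (SE, limma adjusted p = 0.616) under TU and 0.31 ± 0.12 (limma adjusted p = 0.110) under vehicle. The 95% intervals ran between -0.22 and 0.47 under TU and between 0.04 and 0.58 under vehicle.

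**Figure D3:**
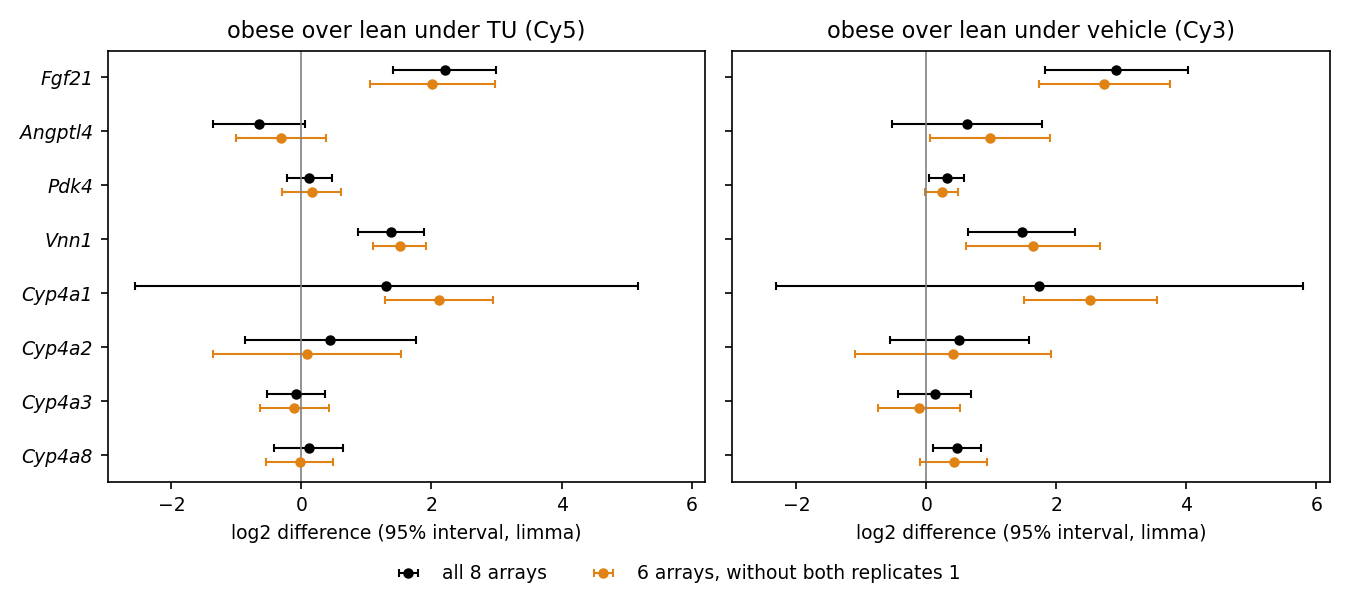
Log2 difference of obese over lean (horizontal axis) with its 95% limma interval for each gene under TU and under vehicle, from all 8 arrays (black) and from the 6 arrays outside position 1 (orange). The intervals of Fgf21 and Vnn1 lie above 0 in both panels; that of Cyp4a1 spans 0 with all arrays and does not with 6.

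Marker lists of cell types were also set against genotype, as sums of levels, which the brightest members dominate, and as calls. Of all probes 20.3% were called under TU (11.6% higher) and 15% under vehicle (7.82% higher). Taken singly, 27% of all probes did not overlap between genotypes under TU and 26.3% under vehicle. In whole liver, fewer cells of a type and less RNA per cell cannot be told apart. The summed level of 6 measured of 7 stellate cell markers was 7465 to 15549 on obese and 5522 to 5928 on lean arrays under TU, and 7511 to 10818 on obese and 6566 to 7872 on lean arrays under vehicle. Of the 6, 4 were called higher and 1 lower in obese livers under TU, and 2 higher and 1 lower under vehicle. The sum over 4 of 7 adipocyte markers was 2394 to 2592 on obese and 4369 to 4626 on lean arrays under TU, and 2419 to 2972 on obese and 4090 to 4778 on lean arrays under vehicle. These 4 went both ways, with 1 called higher and 2 lower under TU and 1 each under vehicle, and their median level per array overlapped between genotypes in both dyes. Adipoq and Lep, which define fat cells, did not pass the filter. The 4 of 7 lymphocyte markers summed to 547 to 645 on obese and 737 to 868 on lean arrays under TU, and Cd3e did not pass the filter. Only 1 of these 4 was called, lower in obese livers, 2 of 4 lay above 0, and the median levels per array overlapped (6.86 to 7.05 on obese and 6.93 to 6.96 on lean arrays). For 10 of 10 macrophage markers the sums were 38301 to 43324 on obese and 45611 to 52232 on lean arrays under TU, and overlapped under vehicle. By calls the macrophage list went both ways under TU, with 1 higher and 2 lower in obese livers and a median log2 difference of 0.02, and its median level per array was 10.28 to 10.48 on obese and 9.97 to 10.29 on lean arrays. The 10 hepatocyte markers summed to 599782 to 808233 on obese and 798038 to 931157 on lean arrays under TU, with 2 called higher and 2 lower. The part of these cell types in the genotype differences was not tested.

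No gene of the 8 passed in the response to TU. In lean livers the background was 0.178% of probes, in obese livers 0.0111%. At an unadjusted p under 0.05 limma gave 5 of 8 genes in lean livers (15% of all probes) and 1 of 8 in obese livers (12.7% of all probes). In lean livers 5 of the 8 genes lay above 0 on all 4 arrays, against 11.9% of all probes; in obese livers none of the 7 with 4 values did, against 12.6%. In lean livers the median log2 response of the 8 was 0.49 beside -0.02 over all probes. In obese livers the median was 0.13 beside -0.01. Centring each array on its median instead of using loess moved the median of all probes in lean livers to -0.21, and Cyp4a1, Cyp4a2 and Pdk4 then lay below 0 (-0.06, -0.12 and -0.23).

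Angptl4 had the largest mean response in lean livers, at 2.00-fold. The log2 ratio of TU over vehicle was 1.66, 1.65, 0.65 and 0.03 on lean arrays 1 to 4 (mean 1.00 ± 0.31 SE, limma adjusted p = 0.187). On obese arrays it was 0.44, -0.76, -0.89 and 0.10 (-0.28 ± 0.31, limma adjusted p = 0.673). Lean ratios were all above 0 and obese ratios were on both sides of it, with overlap between the genotypes. The obese minus lean difference was -1.28 ± 0.43 (limma adjusted p = 0.641, 95% interval -2.26 to -0.29, not adjusted for the number of probes). With ratios scaled between arrays the obese response was -1.95 ± 1.26 and the difference -2.77 ± 1.79.

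Cyp4a1 was above 0 on all lean arrays, with log2 ratios of 0.56, 0.88, 0.21 and 0.19 and a mean of 0.46 ± 0.11 (SE, limma adjusted p = 0.109). On obese arrays the ratios were 0.06, -0.08, 0.06 and 0.08 (0.03 ± 0.11, limma adjusted p = 0.906). The obese and lean ratios did not overlap, alone among the 8 genes, as for 5.07% of all probes (1.94% with obese below lean). That separation changed with the processing: on obese replicate 1, a dim spot (75 over a background of 47 in Cy5), the ratio with the scanner software's processed signals was 0.53, inside the lean range of 0.23 to 1.04. The ratios also overlapped with median centring. The difference of -0.43 ± 0.15 was not called (limma adjusted p = 0.641), nor was that of any probe but 1 (0.00372%). Without obese replicate 2 the lean response of Cyp4a1 passed (adjusted p = 0.0461), when 1181 of all probes passed where 48 did with all arrays. With median centring the difference was 0.42, of the opposite sign.

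The remaining CYP4A genes and Vnn1 had positive mean responses in both genotypes. In lean livers the log2 ratio was 0.81, 1.17, 0.02 and 0.37 for Cyp4a8 (0.59 ± 0.18 SE, limma adjusted p = 0.187) and 0.79, 0.98, 0.04 and 0.29 for Cyp4a3 (0.52 ± 0.18, limma adjusted p = 0.244). Vnn1 gave 0.53, 1.38, 0.34 and 0.36 in lean livers (0.65 ± 0.26, limma adjusted p = 0.295) and 0.57, 1.55, -0.19 and 0.33 in obese livers (0.57 ± 0.26, limma adjusted p = 0.401). Replicate 2 had the highest Vnn1 ratio of its genotype on both slides. In obese livers Cyp4a8 averaged 0.23 ± 0.18 and Cyp4a3 0.32 ± 0.21 over 3 arrays. Cyp4a2 averaged 0.27 ± 0.27 in obese and 0.33 ± 0.27 in lean livers, with ratios on both sides of 0 in each.

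Fgf21 was below 0 on 3 of 4 arrays of each genotype, and the exception was replicate 1 in both. Its log2 ratios were 0.13, -0.69, -1.52 and -1.63 on obese arrays (-0.93 ± 0.32 SE, limma adjusted p = 0.372) and 0.85, -0.36, -0.78 and -0.51 on lean arrays (-0.20 ± 0.32, limma adjusted p = 0.831). Without both arrays of position 1 the means were -1.28 ± 0.19 in obese (adjusted p = 0.468) and -0.55 ± 0.19 in lean livers (0.444). With ratios scaled between arrays the obese response was -3.79 ± 2.07 (adjusted p = 0.420) and the obese minus lean difference -3.40 ± 2.93 (0.747), and with median centring that difference was -0.087. Pdk4 averaged -0.12 ± 0.13 in obese and 0.07 ± 0.13 in lean livers, with ratios on both sides of 0 in each. The obese minus lean difference lay below 0 for all 8 genes, with a median of -0.28 beside 0.00 over all probes; with median centring it lay above 0 for Vnn1, Pdk4 and the 4 CYP4A genes.

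**Figure D4:**
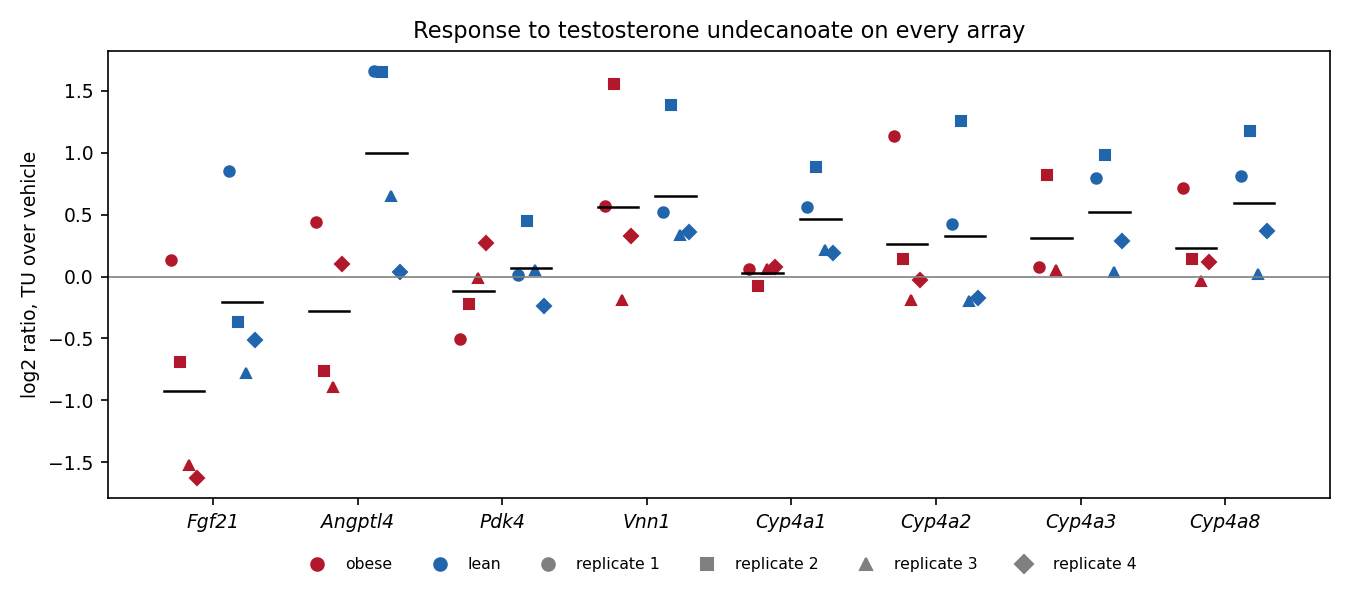
Log2 ratio of TU over vehicle (vertical axis) of each gene on every array, obese (red) left of lean (blue), with symbols for the replicate number and bars for the mean. The lean points of Angptl4, Vnn1, Cyp4a1, Cyp4a3 and Cyp4a8 are all above 0, and obese and lean points of Cyp4a1 do not overlap.

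No gene of the cell type marker lists was called for TU in limma. In lean livers the 10 hepatocyte markers summed to 798038 to 931157 under TU and 632381 to 727767 under vehicle, and 3 of 5 erythroid markers to 5677 to 12437 under TU and 2691 to 6941 under vehicle, with overlap. At an unadjusted p under 0.05 limma gave 4 of the 10 and 1 of the 3, beside 15% of all probes. In obese livers the hepatocyte sums overlapped. Of the 10 macrophage markers 10 lay below 0 in obese livers and 9 in lean livers (3 and 2 at an unadjusted p under 0.05). Of all probes 46.2% lay above 0 in obese and 42.4% in lean livers, and 12.7% and 15% had an unadjusted p under 0.05. The part of these cell types in the responses was not tested. The genes whose log2 ratio followed Angptl4 most closely over the 8 arrays were Pck1, the gluconeogenic phosphoenolpyruvate carboxykinase (Pearson r = 0.971), and Orm1, an acute phase protein (r = 0.969). For Fgf21 they were H2ac25 (r = 0.969) and Gng3 (0.960), for Vnn1 Cbx7 (0.968) and Sestd1 (0.956), and for Cyp4a1 Art1 (0.981) and Rp9 (0.977). For Cyp4a8 they were Tbc1d20 (0.966) and Prkaa2 (0.965), for Cyp4a2 Large2 (0.956) and Tlcd4 (0.955), and for Pdk4 Or4g17 (0.968) and Psd4 (0.966). Cyp4a3, over 7 arrays, was followed by Gadd45b (0.971) and Rxylt1 (0.964). These are the 2 highest of 9822 genes compared (9874 for Cyp4a3), the points share their arrays and dyes, and the values are descriptions.

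The wider pathway was followed in 105 listed genes, of which 91 were measured. For TU, 0 of 91 passed in either genotype in limma. At an unadjusted p under 0.05 there were 22 in lean and 19 in obese livers, beside 15% and 12.7% of all probes. With median centring 15 of the 91 passed in lean livers, all lower, when 6622 of 26913 probes passed, 6301 of them lower. Between genotypes 18 were higher and 6 lower in obese livers under TU, with a median log2 difference of 0.15, and 15 higher and 6 lower under vehicle, with a median of 0.17. These shares stand beside 20.3% and 15% of all probes. Without position 1 the counts were 25 higher and 7 lower under TU and 14 higher and 5 lower under vehicle. Of all 26904 probes then tested, 6806 passed under TU and 3085 under vehicle, where 5458 and 4034 did with all arrays. With the replicate number as a block the vehicle counts were 5 and 1, when 1627 of 26911 probes passed. Without lean replicate 4 there were 10 higher and 4 lower under TU, when 3451 of 26907 probes passed. Leaving out lean replicates 1 to 4 in turn gave 9, 8, 7 and 8 higher under vehicle, beside 900, 801, 807 and 816 of all probes.

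Of the regulators, Ppara itself was not called: 0.20 ± 0.07 (SE, limma adjusted p = 0.0809) under TU and 0.31 ± 0.13 (0.156) under vehicle. Under TU Ppara passed in 3 of 17 other settings. These were median centring (0.41, limma adjusted p = 0.0214), quantile normalisation over all channels (0.22, 0.0448) and leaving out lean replicate 2 (0.26, 0.0222). Rxra, the partner of PPAR alpha, was 1.55-fold higher in obese livers under TU (0.63 ± 0.08, limma adjusted p = 0.0022) and at 0.68 ± 0.19 (0.0533) under vehicle. That vehicle difference was not called here but passed in 6 of 17 other settings. The coactivator Ppargc1a (-0.03 and -0.09) and the fasting-activated factor Creb3l3 (-0.36 and -0.14) were not called under TU or vehicle. Neither were Fgfr4, a liver receptor of the FGF19 family (0.24 and 0.50), Lpl, the enzyme that Angptl4 inhibits (0.15 and 0.00), or Plin5, a droplet protein of oxidative tissues (0.24 and 0.10). With the scanner software's processed signals 8400 of 26911 probes passed under TU and 6567 under vehicle, where 5458 and 4034 did in the main fit. Several of these genes were among them: Fgfr4 at 0.88 under TU (limma adjusted p = 0.0087) and 1.26 under vehicle (0.0422), Plin5 at 0.94 under TU (0.0121), and under vehicle Rxra at 1.04 (0.0188) and Ppargc1a at -1.49 (0.0421). Klb, the co-receptor of FGF21, and Plin4 had no named probe.

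Of 16 enzymes of mitochondrial oxidation and ketogenesis, 5 were higher and 2 lower in obese livers under TU, and 4 higher and 1 lower under vehicle, beside 20.3% and 15% of all probes. Cpt1a, the entry step of fatty acids into mitochondria, was at 0.91 ± 0.33 (SE, limma adjusted p = 0.0917) under TU and 3.03-fold higher under vehicle (1.60 ± 0.31, 0.0160; adjusted p = 0.0707 with a replicate block). Hadhb, a subunit of the trifunctional protein of beta-oxidation, was higher in both, by 1.40 ± 0.11 under TU and 1.39 ± 0.13 under vehicle (limma adjusted p = 0.00034 and 0.00097).

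In peroxisomes, Ehhadh (0.13 under TU and 0.38 under vehicle), an enzyme of the peroxisomal oxidation that PPAR alpha induces in rodents, was not called. With the scanner software's processed signals it was called, at 0.93 under TU (limma adjusted p = 0.0056) and 1.14 under vehicle (0.0053). In that setting 8400 of 26911 probes passed under TU and 6567 under vehicle. Acaa1b, a peroxisomal thiolase, was 2.99-fold higher in obese livers under vehicle (1.58 ± 0.12 SE, limma adjusted p = 0.00057). Cd36, a fatty acid transporter, was 2.94-fold higher under TU (1.56 ± 0.17, 0.0011) and higher by 1.72 ± 0.19 (0.0021) under vehicle. G0s2, an inhibitor of the triglyceride lipase ATGL, was 2.45-fold higher under TU (1.29 ± 0.15, 0.0016).

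Around pyruvate dehydrogenase, Pdk2, a second kinase of that complex, was 1.85-fold higher in obese livers under TU (0.89 ± 0.11 SE, limma adjusted p = 0.0019) and 2.20-fold higher under vehicle (1.14 ± 0.19, 0.0100). Dlat, its acetyltransferase subunit, was 2.77-fold higher under vehicle (1.47 ± 0.24, 0.0092). Another, dimmer Dlat probe was called higher in both dyes, at 0.96 under TU and 1.47 under vehicle (limma adjusted p = 0.0230 and 0.0140). Pdhb, the beta subunit of the complex, was lower in both dyes, at -1.24 ± 0.14 under TU and -1.13 ± 0.12 under vehicle (0.0058 and 0.0079). With the scanner software's processed signals and with a replicate block Pdhb lost both calls. Igfbp1, a binding protein of insulin-like growth factors that insulin represses, was lower, at -1.17 ± 0.23 under TU and -1.19 ± 0.22 under vehicle (0.0112 and 0.0132; adjusted p = 0.0567 under vehicle with a replicate block).

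**Figure D5:**
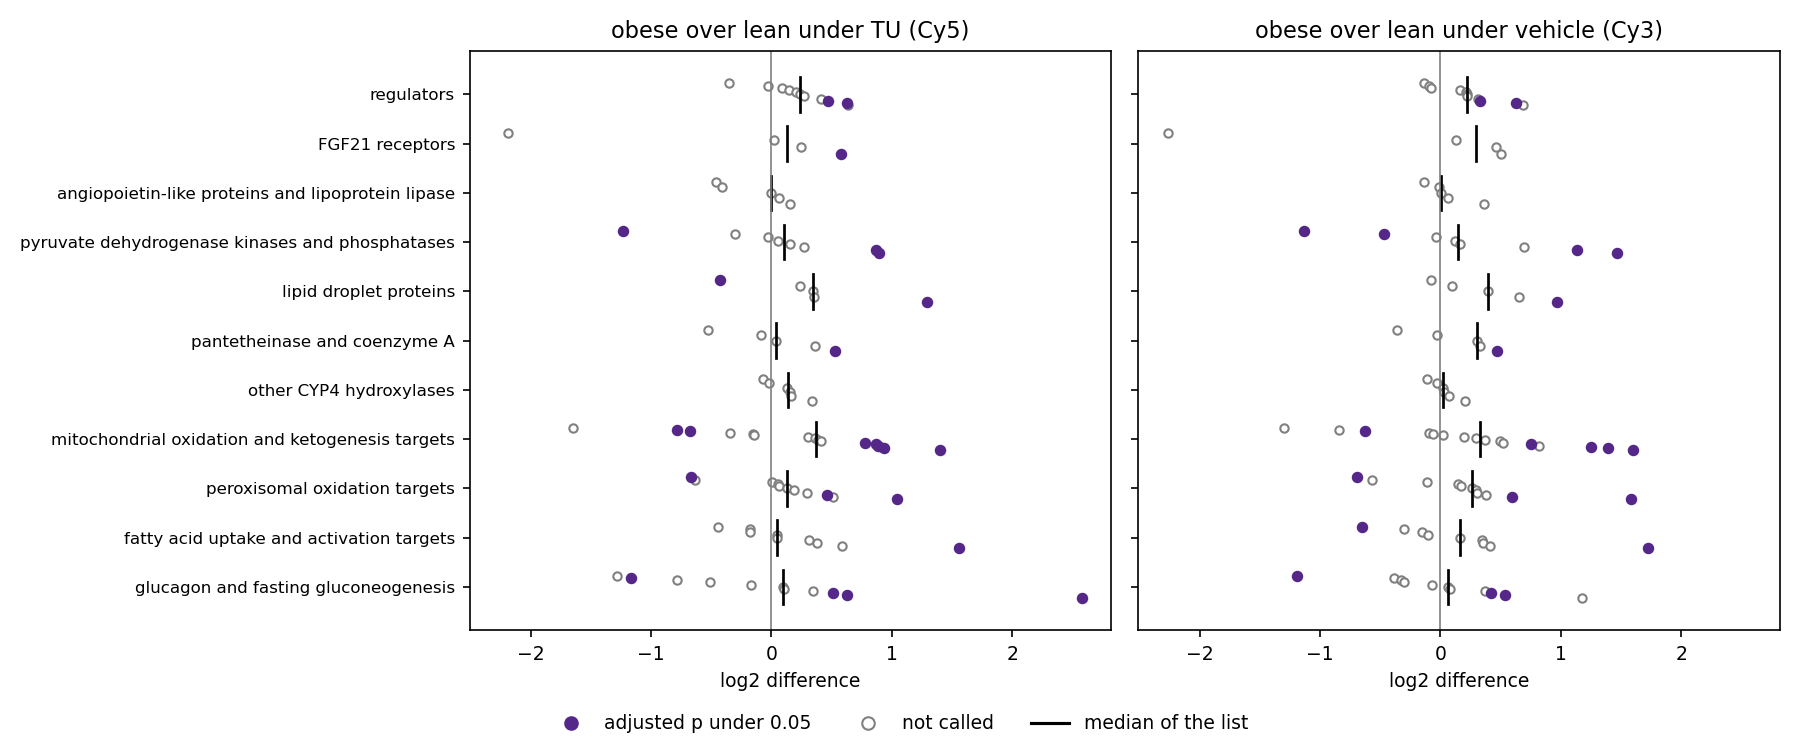
Log2 difference of obese over lean (horizontal axis) of the 91 measured genes by pathway list, under TU and under vehicle; filled points passed at an adjusted p under 0.05, open points did not, and bars are list medians. Called genes lie on both sides of 0, with 18 higher and 6 lower under TU and 15 higher and 6 lower under vehicle.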

How the data were processed

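Liver RNA of male ZDF rats was measured on 8 two-colour arrays (4 obese, 4 lean). Spot and background intensity values in the deposited files are median pixel values, read with Agilent Feature Extraction 10.7.3.1, per the file headers. The deposited processed intensities, background-subtracted and dye-normalized per the file headers, and the authors' series matrix of log2 ratios served as alternatives; they are in effect 1 setting, since the matrix followed the processed ratios with r of at least 0.998 on each array. The matrix ran in the direction of TU over vehicle, with a slope of 3.32 on the log10 ratio of red over green processed signal that the deposited files give, per the file headers; column medians were 0.0792, 0.139, 0.0632 and 0.0459 (obese 1 to 4) and 0.0855, 0.0666, 0.0745 and 0.0662 (lean 1 to 4).

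Background correction was normexp with offset 50, followed by loess within arrays (limma 3.58.1, R 4.3.3, data.table version 1.17.8). Control, non-uniform and population-outlier spots were left out and spots of a probe averaged. Of 41012 probes 26981 passed the filter, and 17010 of all probes had a gene name from the array annotation. TU responses were tested with limma on log2 ratios, fitting 1 mean for obese and 1 for lean arrays, and obese over lean per dye after Aquantile, with Benjamini-Hochberg adjustment over all probes. The fit was tested on simulated data. Number of arrays limits precision. Motifs and promoters come from RefSeq tables, with no genome.

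The named genes were all members, 14 fixed pathway genes where measured, the 6 other called list genes with the largest change per comparison, and per member the 2 named genes with the most similar log ratios; some genes so chosen are not reported here, and none took their place. Members and lists were chosen with earlier results of these data known. Replicate numbers are not stated to mark a shared source. Same-numbered samples of both genotypes correlated in their deviations with r of 0.61, 0.17, 0.44 and 0.25 for TU levels. For vehicle levels r was 0.62, 0.07, 0.41 and -0.06, and for log ratios 0.06, -0.10, 0.16 and -0.01. The main fits did not pair same-numbered samples, and the number entered a fit only as a block in another setting. It is also the position on the slide, and what these samples share was not tested.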

Additional observations from a re-analysis of the deposited data

Results flagged for a closer look

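Of 45 groups of 4 values checked, 5 held a sample whose distance to its nearest neighbour exceeded the 95% critical value of Dixon's ratio; chance gives about 1 in 20. Lean replicate 4 had an Angptl4 level under vehicle of 11.07, while the other lean arrays lay between 9.90 and 9.91. Obese replicate 4 had a Pdk4 level under TU of 8.36, while the others lay between 7.77 and 7.85. Lean replicate 2 had a Vnn1 level under TU of 9.69, against 9.06 to 9.16 on the others. Lean replicate 1 had a Cyp4a1 level under TU of 8.22, against 11.45 to 12.03. Obese replicate 2 had a Cyp4a1 log2 ratio of TU over vehicle of -0.076, against 0.06 to 0.08 on the others.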

How the results depend on the processing

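The 2 called genes under TU, Fgf21 and Vnn1, kept their calls in all 17 other settings, as did Fgf21 under vehicle. The count of called genes of the 8 was 0 in each setting for the obese response and the obese minus lean difference, and for the lean response 0 to 1 without 1 array. Under vehicle it was 1 with median centring and 1 to 3 without 1 array. Of 1245 values of single genes under other settings, 1162 kept sign and call, 25 gained and 17 lost a call, and 41 changed sign. With a replicate block the counts were 0 for both responses and their difference, and 2 in each dye. The block changed no call of the 8 genes; of the other named genes it ended those of Cpt1a, Igfbp1 and Pdhb under vehicle and of Pdhb under TU. Over all probes other settings gave 0 to 6622 calls for the lean response, 0 to 204 for the obese response, 0 to 3 for their difference, 3439 to 8447 for genotype under TU and 1627 to 6567 under vehicle. Of calls with median centring, 321 were higher and 6301 lower for the lean response, 5533 and 1206 for genotype under TU, and 833 and 2709 under vehicle. With a replicate block the vehicle split was 708 and 919.

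Values that changed sign lay near 0 or came from another normalization. With median centring the lean response was -0.063 for Cyp4a1, -0.12 for Cyp4a2 and -0.23 for Pdk4. The obese minus lean difference was then 0.42 for Cyp4a1, 0.52 for Cyp4a2, 0.75 for Cyp4a3, 0.44 for Cyp4a8, 0.15 for Pdk4 and 0.55 for Vnn1. Genotype differences were 0.40 (TU) and -0.35 (vehicle) for Cyp4a3, 0.069 (TU) for Creb3l3 and -0.020 (vehicle) for Lpl. With ratios scaled between arrays the obese response was -0.24 for Cyp4a2 and -0.084 for Vnn1. With processed signals Pdk4 was at -0.082 and Creb3l3 at 0.11 under TU, and Creb3l3 at 0.31 and Lpl at -0.037 under vehicle. Without both arrays of position 1 the obese response was -0.025 for Cyp4a2 and 0.0095 for Pdk4, and the difference of responses 0.00022 for Cyp4a3. Cyp4a3 was then at -0.11 under vehicle, and Cyp4a8 at -0.027 and Ppargc1a at 0.0012 under TU. Without 1 array the obese response ranged from -0.025 to 0.42 for Cyp4a2 and from -0.25 to 0.0095 for Pdk4, and the lean response of Pdk4 from -0.057 to 0.17. The difference of responses ranged from -0.35 to 0.25 for Cyp4a2 and from -0.42 to 0.17 for Vnn1, and from -0.46 to -0.057 for Cyp4a3. Under TU genotype differences ranged from -0.21 to 0.030 for Cyp4a3, -0.066 to 0.28 for Cyp4a8, -0.014 to 0.21 for Pdk4 and -0.055 to -0.0048 for Ppargc1a. Under vehicle they ranged from -0.095 to 0.42 for Cyp4a3, -0.30 to 0.18 for Creb3l3 and -0.045 to 0.040 for Lpl. The cause was not tested. Signal over background limits the Cyp4a1 values of position 1, where the offset compresses differences.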
